A study of Homo sapiens with 2 samples.

Results

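Small nucleolar RNA host genes carry small nucleolar RNAs (snoRNAs) in their introns, and 32 of the 62700 genes in the gene table were taken as such hosts by symbol: 28 genes with SNHG and a number, together with GAS5, EPB41L4A-AS1, ZFAS1 and DANCR. The cells were TCam-2, an established seminoma line (seminoma is a tumour of germ cells of the testis), transduced with a FLAG-tagged DDX53 construct. DDX53 is a DEAD-box RNA helicase gene, and the labels give the genotype of both libraries as overexpression of it. The promoter of the construct, the selection of the cells and whether they are 1 clone are not given in the sources used here. The series holds 1 group of 2 replicate libraries of polyadenylated RNA. Cells with a GFP construct and cells without a construct, which the study used as controls, were not analysed here, so every comparison below is between the 2 libraries, between genes or between the 2 deposited tables.

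Most human snoRNAs are cut out of the excised introns of longer transcripts rather than made from genes of their own. Box C/D snoRNAs guide methylation of ribosomal RNA and other RNAs, and box H/ACA snoRNAs guide pseudouridylation. In hosts with a protein the spliced exons go on to be translated. Most of the genes described here are annotated as non-coding, with SNHG32 as the 1 that release 29 lists as protein-coding, and in such hosts the spliced transcript is often found on ribosomes and removed by nonsense-mediated decay. Many hosts start with a cytosine followed by a run of pyrimidines, the terminal oligopyrimidine start that also marks ribosomal protein genes and ties translation of the transcript to growth signals.

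The sequence features of the hosts are shown first. Transcript starts were taken from GENCODE release 29 on GRCh38 for the 16 hosts with a summed TPM (transcript abundance scaled to the library total, a level per length) of at least 10 in both libraries. In 4 of the 16, or 25%, the transcript with the highest mean TPM began with C followed directly by 4 bases that are each C or T. The same was found for 3.08% of the top transcripts of all 7432 genes at that level and for 6.29% of 159 protein-coding snoRNA hosts. The 4 starts are given below, 30 bases each on the transcribed strand, with the run of pyrimidines in capitals, followed by the 2 hosts with the most reads, whose top annotated transcripts start otherwise. A search of this kind reads only the annotated first base, and a transcript annotated short at its start would be missed. For GAS5 the start shown is that of GAS5-201 at 173867987 on the minus strand, and GAS5-219 starts upstream at 173867989. For SNHG29 it is that of LRRC75A-AS1-209 at 16439321, and LRRC75A-AS1-210 starts upstream at 16438987. Only the top transcript of each gene was read, so neither gene is shown to lack such a start.
SNHG16: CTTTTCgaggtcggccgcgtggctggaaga
SNHG19: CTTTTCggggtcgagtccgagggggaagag
SNHG5: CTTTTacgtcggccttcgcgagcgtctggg
ZFAS1: CTTTCgcgtctgcggtgcccggagtgtggt
SNHG29: tggtagggccacatctgccagagcctggag
GAS5: tttcgaggtaggagtcgactcctgtgaggt

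Release 29 placed 144 snoRNA genes within the hosts on the same strand, 84 of them in SNHG14 alone. These include genes named SCARNA, and some, such as SNORA16A in SNHG12, are entered more than once at the same locus. The release placed none in SNHG27 or GAS5, although RefSeq names 11 within GAS5, SNORD44, SNORD47 and SNORD74 among them. The letters TGATGA (the core of box C) in the first 25 bases together with CTGA (box D) in the last 20 were found in 93 of the 144, or 64.6%, against 22.7% of all 993 snoRNA genes of release 29. Without SNHG14 they were found in 20 of 60, or 33.3%. ACA placed 3 bases before the end, the mark of box H/ACA snoRNAs, was found in 18 of the 60, or 30%, against 30.9% of all. Motifs were read on the transcribed strand only, and since the shortest of the 144 has 59 bases, the windows for box C and box D did not overlap.

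The snoRNAs of ZFAS1, the host with the highest summed TPM, and the pair SNORD49A and SNORD49B of SNHG29, the host with the most reads, are shown with box C and box D in capitals. SNORD12C lies on chr20:49278940-49279028, SNORD12B on chr20:49280319-49280409 and SNORD12 on chr20:49280683-49280772, all on the plus strand of GRCh38. SNORD49B lies on chr17:16439505-16439576 and SNORD49A on chr17:16440036-16440106, also on the plus strand. SNORA73B, on the plus strand at chr1:28508559-28508762 within SNHG3, is shown with its ACA in capitals because it had more reads than any other snoRNA gene in these hosts. SNORA73A and SNORA73B are box H/ACA snoRNAs known for a role in the cleavage of the ribosomal RNA precursor.
SNORD12C: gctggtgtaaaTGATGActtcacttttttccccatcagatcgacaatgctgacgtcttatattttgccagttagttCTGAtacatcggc
SNORD12B: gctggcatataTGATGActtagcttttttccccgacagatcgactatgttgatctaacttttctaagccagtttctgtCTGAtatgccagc
SNORD12: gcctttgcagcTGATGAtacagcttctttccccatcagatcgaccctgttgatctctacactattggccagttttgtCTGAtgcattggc
SNORD49B: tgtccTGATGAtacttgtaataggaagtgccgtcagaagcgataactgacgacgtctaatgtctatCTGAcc
SNORD49A: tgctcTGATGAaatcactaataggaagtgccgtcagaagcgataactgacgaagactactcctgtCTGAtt
SNORA73B: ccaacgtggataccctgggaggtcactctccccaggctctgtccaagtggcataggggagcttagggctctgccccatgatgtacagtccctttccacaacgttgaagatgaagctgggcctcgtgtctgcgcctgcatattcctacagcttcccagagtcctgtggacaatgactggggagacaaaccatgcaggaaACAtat

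The snoRNAs themselves were nearly absent from the gene table, whose libraries were made from RNA with a poly(A) tail. Of the 144 snoRNA genes, 136 had no read in either library. The other 8 shared 54 reads in replicate 1 and 40 reads in replicate 2. SNORA73B had 32 and 26 of these reads and SNORA71B, within SNHG17, had 8 and 7. All 84 snoRNA genes within SNHG14 were at 0 reads. The hosts around them had 32619 and 30264 reads, so the values below are those of the host transcripts and say nothing of the amount of mature snoRNA. Exons of the hosts overlap some of the snoRNA genes on the same strand, among them SNORD49A, SNORD49B and SNORD65 in SNHG29 and SNORD22 and SNORD25 in SNHG1. How reads shared between overlapping genes, or between entries of like sequence, were counted is not stated. The part of this in the genes without a read was not tested.

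The libraries had 24137664 and 22198929 reads in genes. For a gene without a read the upper limit is 3 reads, equal to 0.124 CPM (counts scaled to the total of reads in genes) in replicate 1 and 0.135 CPM in replicate 2. Such limits, like the Wilson intervals below, cover counting error only. DDX53 had 146 reads in replicate 1 and 147 in replicate 2, which do not tell the construct from the cells' own gene. All 12 markers of seminoma reached 1 CPM in both libraries, among them POU5F1 at 1906 ± 21.1 CPM and TFAP2C at 1251 ± 6.31 CPM (SD, n = 2 each). The 4 markers of embryonal carcinoma summed to 226 to 259.8 CPM, and 3 of them reached 1 CPM in both libraries, while SOX2, with 24 reads in each, did not. Sertoli cell markers summed to 10.7 to 14.2 CPM (2 of 4 detected), and none of 4 Leydig or 4 leukocyte markers reached 1 CPM, with HSD3B2, PTPRC, CD68 and CD3E at 0 reads in both libraries. Of 4 fibroblast markers 3 were detected, summing to 448 to 474 CPM, nearly all of it COL1A2 at 439 ± 22.2 CPM (SD, n = 2), while DCN had 1 read in each library. The part of other cell types in the levels below was not tested.

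Of the 32 hosts, 25 reached 1 CPM in both libraries, or 78.1%, against 21.7% of all 62700 genes and 5.86% of 14680 other long non-coding genes of release 29. Their reads made up 0.135% of replicate 1, with a 95% Wilson interval of 0.134% to 0.137%, and 0.136% of replicate 2, with an interval of 0.135% to 0.138%. Their median was 13.7 CPM over all 32. The 5 hosts with the most reads held 70.5% of the hosts' reads in replicate 1 and 69.7% in replicate 2. The level of reads was therefore set by few genes, which are described next in the order of their reads.

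**Figure D1:**
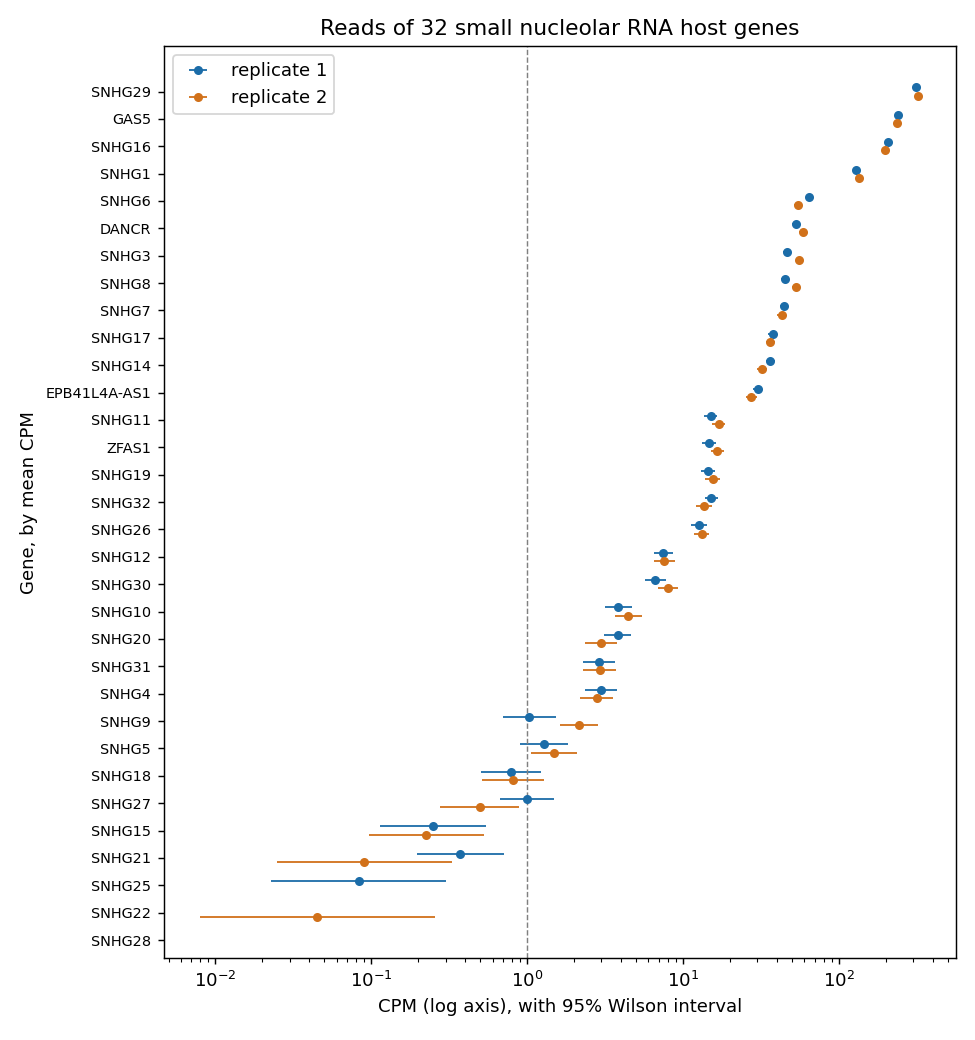
Reads of the 32 host genes in CPM on a log axis, replicate 1 in blue and replicate 2 in orange, with 95% Wilson intervals and a dashed line at 1 CPM. The genes run from SNHG29 at 314 and 323 CPM down to SNHG28, which had no read, and a library without a read has no point.

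SNHG29, listed as LRRC75A-AS1 in release 29, had the most reads. It lies on the plus strand of chromosome 17 from 16438822 to 16478678 and hosts SNORD49A, SNORD49B and SNORD65. It had 7580 reads in replicate 1 and 7161 in replicate 2, or 314 and 323 CPM, with a mean of 318 ± 6.05 CPM (SD, n = 2). GAS5, named for its rise in growth-arrested cells, lies on the minus strand of chromosome 1 from 173863900 to 173868882. It had 5761 and 5271 reads, or 239 and 237 CPM, and its Wilson intervals of 233 to 245 and 231 to 244 CPM overlapped. The intervals of SNHG29, 307 to 321 and 315 to 330.1 CPM, overlapped as well.

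SNHG16, the host of SNORD1A, SNORD1B and SNORD1C, had 4989 and 4383 reads, or 207 and 197 CPM. SNHG1, host of SNORD22 and of SNORD25 to SNORD31 in RefSeq, had 3110 and 2987 reads, or 129 and 135 CPM. SNHG16 lies on chromosome 17 (76557766 to 76565348, plus strand) and SNHG1 on chromosome 11 (62851988 to 62855914, minus strand). In the order of reads SNHG29, GAS5, SNHG16 and SNHG1 each stood above the next in both libraries without overlap. SNHG1 was also clear of the next gene, SNHG6, the host of SNORD87, whose CPM of 64.8 and 54.6 overlapped those of DANCR at 53.2 and 58.8.

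A second tier of 7 hosts lay between 27.5 and 58.8 CPM. DANCR, a transcript named as an antagonist of differentiation that hosts SNORA26, had 1284 and 1305 reads. SNHG3 had 1123 and 1242 reads, SNHG8 (host of SNORA24) 1087 and 1175, and SNHG7 (host of SNORA17A and SNORA17B) 1080 and 954. SNHG17 had 911 and 809 reads. EPB41L4A-AS1, the host of SNORA13, had 727 and 611 reads. SNHG14, the long imprinted transcript of chromosome 15 that runs from 24978583 to 25419462 and over part of UBE3A on the other strand, had 879 and 710 reads, or 36.4 and 31.98 CPM. From DANCR to SNHG8 neighbours in the order overlapped, so these levels of reads could not be ranked.

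SNHG11, ZFAS1, SNHG19, SNHG32 and SNHG26 lay between 12.7 and 16.9 CPM, from 293 to 376 reads. SNHG12, the host of 5 snoRNA entries in release 29 and of 4 in RefSeq, was at 7.499 and 7.61 CPM, and SNHG30 at 6.63 and 8.02 CPM. SNHG10, SNHG20, SNHG31 and SNHG4 lay between 2.79 and 4.46 CPM. SNHG9 and SNHG5 were the lowest of the 25 detected hosts, SNHG9 with 25 and 48 reads and SNHG5 with 31 and 33 reads. Of the 7 hosts that missed 1 CPM in a library, SNHG18 had 19 and 18 reads and SNHG27 had 24 and 11 reads. SNHG15 had 6 and 5 reads, SNHG21 had 9 and 2, SNHG25 had 2 and 0, and SNHG22 had 0 and 1. SNHG28 was the only host at 0 reads and at 0 TPM in both libraries, and 100% of its exonic length lies in exons of other genes on its strand in release 29.

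Per length the order was another one. ZFAS1, on the plus strand of chromosome 20 from 49278178 to 49295738, led with 360.1 TPM in replicate 1 and 378 TPM in replicate 2, a mean of 369 ± 12.4 TPM (SD, n = 2). SNHG29 followed at 216 ± 16.1 TPM, below ZFAS1 in both libraries. SNHG6 at 182 ± 23.6 TPM and SNHG32 (listed as C6orf48 in release 29) at 178 ± 3.69 TPM overlapped each other, as did SNHG8 at 118 ± 24.2 TPM and SNHG19 at 100.1 ± 4.84 TPM (SD, n = 2 each). DANCR had 66.2 and 75.8 TPM and GAS5 57.0 and 62.0 TPM. Beneath them SNHG5 at 39.1 ± 8.88 TPM and SNHG3 at 38.8 ± 4.54 TPM (SD, n = 2 each) overlapped. The other 6 of the 16 hosts with at least 10 TPM in both libraries, SNHG1, SNHG17, SNHG9, SNHG16, SNHG12 and SNHG7, lay between 10.2 and 25.9 TPM. These sums hold only transcripts of release 29. The transcript table has 50288 transcripts that are not in that release, while those in it hold 94.8% of the TPM, and how many of them belong to these hosts was not determined.

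The 2 tables were set against each other to show where reads and transcript abundance part. The reads of a gene were predicted from its TPM times transcript length on the scale of CPM. For the 25 hosts whose mean reached 1 CPM, log2 of measured over predicted CPM had a median of 0.53 in replicate 1 and 0.48 in replicate 2, against 0.14 and 0.15 over all genes at that level and 0.14 and 0.16 over the protein-coding snoRNA hosts. The other long non-coding genes had medians of 0.49 and 0.47, close to those of the hosts.

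In 6 of the 17 hosts with a mean of at least 10 CPM the reads were over 4-fold above the prediction in both libraries, where 2.42% of all 9354 such genes were, those predicted at 0 included. The 6 were SNHG16, SNHG1, GAS5, SNHG26, SNHG7 and SNHG17. SNHG16 had log2 ratios of 5.12 and 3.93, with 207 and 197 CPM against predictions of 5.96 and 13.0 CPM. GAS5 had log2 ratios of 3.01 and 2.96, and SNHG1 of 2.95 and 3.68. Exons of other genes on the same strand covered 2.80% of SNHG16, 0% of GAS5 and 15.3% of SNHG1, the last being snoRNA genes. On the opposite strand they covered 30.6% of SNHG16, 25.2% of SNHG7, 1.16% of GAS5 and none of SNHG1, SNHG17 or SNHG26. The part of overlap in the reads of these hosts was not tested. For these 6 hosts the summed TPM is far below what the reads call for, so their place in the order per length is uncertain.

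In 3 of the 16 hosts with at least 10 TPM the reads were over 4-fold below the prediction in both libraries, where 5.66% of all 7432 such genes were. ZFAS1 had 355 and 370 reads, or 14.7 and 16.7 CPM, against predictions of 179 and 190.2 CPM, with log2 ratios of -3.60 and -3.51. SNHG5 had 1.28 and 1.49 CPM against predictions of 13.7 and 19.2 CPM. SNHG32 had 15.2 and 13.6 CPM against predictions of 104 and 101 CPM. The gap was of like size in both libraries for each of the 3 genes. Reads and TPM part here too, so the place of these 3 hosts in the order per length is uncertain as well. Exons of other genes on the same strand covered 20.9% of ZFAS1, 29.1% of SNHG32 and 2.49% of SNHG5, and exons on the opposite strand covered 26.1% of ZFAS1 and none of the other two. The labels give a strand-specific kit, but whether the counting used strand is not stated, and the part of overlap in these gaps was not tested.

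**Figure D2:**
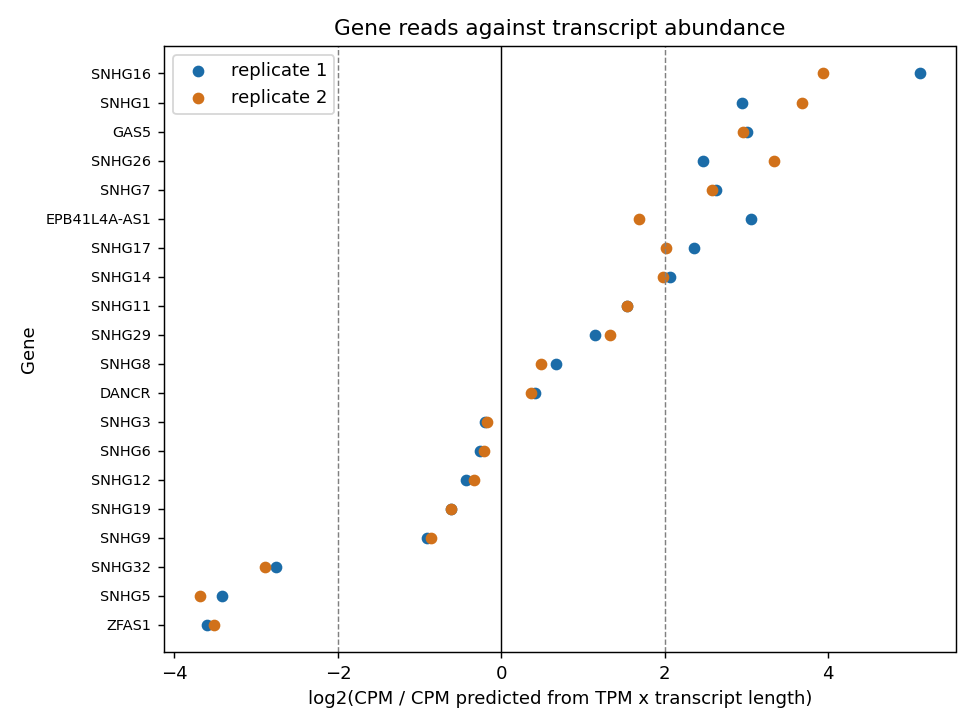
Log2 ratio of measured CPM to the CPM predicted from TPM and transcript length for the 20 hosts with at least 10 CPM or at least 10 TPM, replicate 1 in blue and replicate 2 in orange, with dashed lines at 4-fold. ZFAS1, SNHG5 and SNHG32 lie left of the lower line and SNHG16 lies farthest right, at 5.12 and 3.93.

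The libraries were then compared with each other, which asks how far host levels vary between replicates of the same cells. Of the 27 hosts with enough reads to be tested, 4 differed by more than counting noise (exact binomial test in edgeR, Benjamini-Hochberg adjusted p under 0.05 over all 15299 genes tested). That is 14.8%, near the 13.1% of all genes called. SNHG3, SNHG8 and SNHG9 were higher in replicate 2, where 6.78% of all genes were called higher, and SNHG6 was lower, where 6.35% were called lower. The test compares 2 libraries and not conditions, and nothing in the labels says whether the replicates came from separate cultures.

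SNHG3 had 46.5 CPM in the first library and 55.9 CPM in the second, a log2 difference of 0.26 (edgeR exact binomial test, adjusted p = 0.00011). SNHG8 had 45.03 and 52.9 CPM, a log2 difference of 0.23 (edgeR exact binomial test, adjusted p = 0.0014). SNHG6 had 64.8 and 54.6 CPM, a log2 difference of -0.24 (edgeR exact binomial test, adjusted p = 0.0004). In all 3 genes the Wilson intervals of the libraries lay apart. SNHG9, the host of SNORA78, had the largest difference of the 4, from 1.04 CPM (0.702 to 1.53) to 2.16 CPM (1.63 to 2.87), a log2 difference of 0.64 (edgeR exact binomial test, adjusted p = 0.022), but it rests on 25 and 48 reads. Their TPM moved the same way, SNHG3 from 35.6 to 42.0, SNHG8 from 101 to 135, SNHG9 from 10.2 to 20.7 and SNHG6 from 199 to 166. TPM and reads come from the same libraries, so the TPM is not independent evidence of these differences.

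The other 23 tested hosts were not called. DANCR came nearest, with 53.2 and 58.8 CPM (edgeR exact binomial test, adjusted p = 0.055). GAS5 had a log2 difference of -0.01 and SNHG29 of 0.04. Over the 25 hosts with a mean of at least 1 CPM, 15 were higher and 10 lower in replicate 2, with a median log2 difference of 0.039 against -0.0077 over all 13898 such genes. Their differences ranged from -0.28 in SNHG20 to 0.64 in SNHG9. The scale, log2 of CPM plus 1, understates the difference of low genes.

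**Figure D3:**
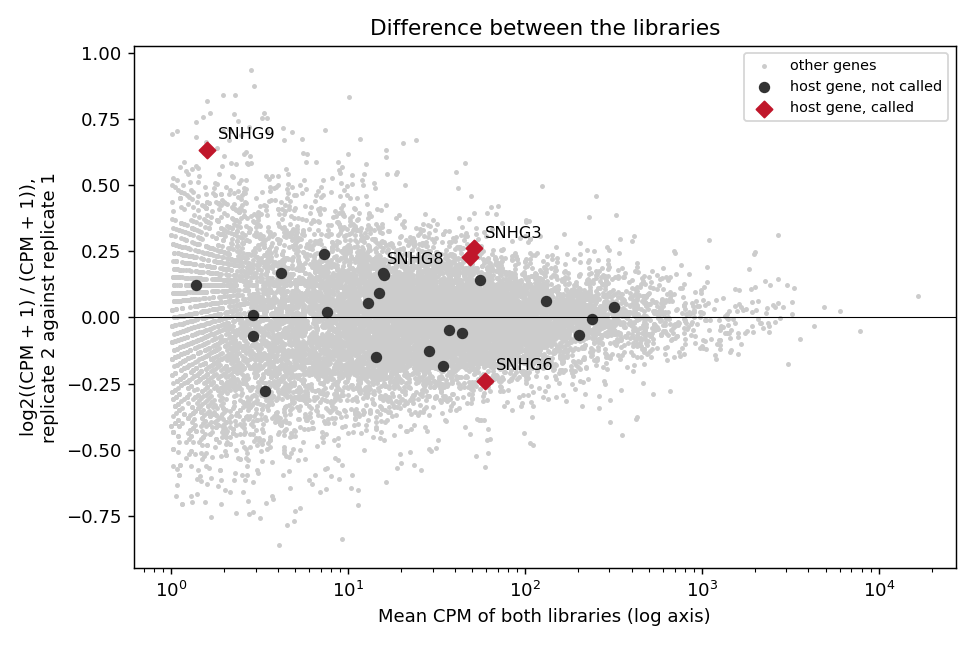
Log2 difference between the libraries, replicate 2 against replicate 1, over the mean CPM on a log axis for genes whose mean reached 1 CPM. Grey points are other genes, black circles are host genes that were not called and red diamonds are the 4 that were, SNHG9 at 0.64, SNHG3 at 0.26, SNHG8 at 0.23 and SNHG6 at -0.24.

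The related classes were read beside the hosts. Of 272 protein-coding genes that hold a snoRNA gene in release 29, 229 were detected, with a median of 73.7 CPM among those detected against 16.0 CPM for the 25 detected hosts. EEF2, the translation elongation factor that moves the ribosome along, was the highest at 3605 ± 144 CPM, followed by the ribosomal protein genes RPL3 at 2299 ± 18.2 CPM and RPS2 at 2151 ± 20.003 CPM (SD, n = 2 each). Of 232 tested, 52 were called between the libraries, or 22.4%, 21 higher and 31 lower in replicate 2, against 13.1% of all genes, 6.78% higher and 6.35% lower. Those with the smallest adjusted p were RPSA (log2 difference 0.11), NCL (-0.14), HSPA8 (0.10), EEF2 (-0.08) and RPLP2 (-0.15). Some of these genes, RPSA among them, have near-identical pseudogenes, and how shared reads were counted is not stated. The median of 73.7 CPM among detected genes of the class stands against 24.4 CPM over all detected genes. The part of this higher read level in the 22.4% was not tested. The median log2 difference of the class was -0.0064. Levels of reads are not per length, and the protein-coding hosts also differ in transcript length.

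All 23 genes for snoRNA-protein particles and snoRNA maturation were detected. NOP56, a core protein of box C/D particles, was the highest at 366 ± 3.26 CPM, followed by the exonuclease XRN2 at 298 ± 5.83 CPM and FBL, the methyltransferase of box C/D particles, at 276 ± 0.0927 CPM (SD, n = 2 each). Of the 23, 3 were called. NOP58 (201 and 179 CPM, log2 difference -0.17) and GAR1, a protein of box H/ACA particles (33.2 and 27.97 CPM, log2 difference -0.24) were lower in replicate 2 and NOP10 (75.5 and 83.1 CPM, log2 difference 0.14) was higher. That is 13.0% against 13.1% of all genes, and the median log2 difference was -0.00068.

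All 15 genes of nonsense-mediated decay and the exon junction complex were detected as well. The helicase UPF1 was at 302 ± 5.74 CPM, EIF4A3, the anchor of the exon junction complex, at 246 ± 7.79 CPM and SMG5 at 202 ± 5.68 CPM (SD, n = 2 each). Called between the libraries were 3 of the 15, or 20%, all lower in replicate 2, against 13.1% of all genes called and 6.35% called lower. Among them were the kinase SMG1 (70.7 and 50.9 CPM, log2 difference -0.46) and UPF2 (36.9 and 29.6 CPM, log2 difference -0.31). SMG1 has near-identical partial copies in the genome, so its reads are uncertain. The list's median log2 difference was -0.059, with 10 of 15 lower.

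Transcripts were described last. Release 29 lists 294 transcripts of the hosts that are in the transcript table. Of these 114 were above 0 TPM in both libraries, 58 in 1 library only and 122 in neither. Shares below are percentages of a gene's summed TPM over these transcripts. The depth behind a TPM is unknown, so shares carry no interval. In SNHG16, SNHG1, GAS5, SNHG7 and SNHG17 the reads were over 4-fold above the prediction. Shares there describe only the transcripts of release 29. In ZFAS1, SNHG5 and SNHG32 the reads were over 4-fold below the prediction, so the TPM behind their shares is uncertain as well. Of the 16 hosts with at least 10 TPM, 15 have more than 1 transcript. Over these 15 the leading transcript had a median share of 59.9% in replicate 1, against 72.3% over all 7037 such genes.

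In some hosts 1 transcript held almost all of the summed TPM. DANCR-201, of 3 exons, held 96.5% and 98.8% of DANCR in replicates 1 and 2, SNHG9-201 held 95.6% and 96.5%, SNHG7-202 held 92.1% and 90.4%, and SNHG19 has a single transcript. ZFAS1 was split in a steady way: ZFAS1-204 held 40.2% and 39.8%, ZFAS1-205 held 32.7% and 36.1%, and ZFAS1-201 held 11.7% and 9.62%. ZFAS1-204 and ZFAS1-201 start at position 49278642, and ZFAS1-205 starts upstream at 49278178. In SNHG32 the transcript C6orf48-203 held 37.7% and 37.3% and C6orf48-205 held 32.4% and 32.5%. In SNHG29 LRRC75A-AS1-209 held 46.8% and 45.7%, and 4 others held over 5% each in both libraries. In SNHG8 the shares of the 3 leading transcripts were 53.2%, 27.4% and 18.3% in replicate 1 and 56.6%, 27.1% and 15.6% in replicate 2.

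The top transcript was not the same in both libraries in 2 of the 15 hosts, GAS5 and SNHG12, where 6.91% of all genes at that level differed. In GAS5, GAS5-201 led in replicate 1 with 27.7% and had 13.2% in replicate 2, while GAS5-213 had 10.9% and then led with 17.3%; both are annotated as retaining an intron. In SNHG12, SNHG12-202 led in replicate 1 with 19.4%, just above SNHG12-212 at 19.2%, and SNHG12-212 led in replicate 2 with 25.9%. SNHG16 kept its top transcript, but SNHG16-204 went from 74.7% to 62.9% as SNHG16-202 went from 6.69% to 25.7%. SNHG6-203 went from 79.7% to 71.4%. The share of the transcript that led in replicate 1 moved, up or down, by a median of 3.09 points over the 15 hosts. Over all such genes the median was 3.01 points.

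Single transcripts could be listed at 0 in 1 library and well above it in the other. EPB41L4A-AS1-203 was listed at 0 TPM in replicate 1 and at 12.7 TPM in replicate 2, where it held 70.2% of the gene, while the reads of EPB41L4A-AS1 were 30.1 and 27.5 CPM. SNHG1-210 was at 6.46 TPM in replicate 1 and listed at 0 in replicate 2. In both genes the summed TPM moved far more than the reads, from 5.65 to 18.1 TPM in EPB41L4A-AS1 and from 25.9 to 18.2 TPM in SNHG1.

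Transcripts annotated as retaining an intron held 5.97% of the hosts' TPM in replicate 1 and 6.25% in replicate 2, a mean of 6.11% ± 0.195 (SD, n = 2), against 3.88% and 3.78% over all matched transcripts. Of the hosts' 294 transcripts 66 are annotated so, a larger part than the 27900 of all 201667 matched transcripts. The part of this annotation in the higher share was not tested. The share of TPM was uneven among the hosts. In GAS5 it was 73.1% and 79.6%, spread over several transcripts, in SNHG12 67.4% and 53.8%, in SNHG3 40.1% and 37.0%, nearly all of it SNHG3-202, and in SNHG1 29.7% and 39.4%. ZFAS1, SNHG32, SNHG8, SNHG7, SNHG9 and SNHG19 have no transcript of that type among those described, so their 0% was fixed by the annotation. Since GAS5 and SNHG1 had far more reads than their TPM predicts, these shares describe only the transcripts of release 29 in them.

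**Figure D4:**
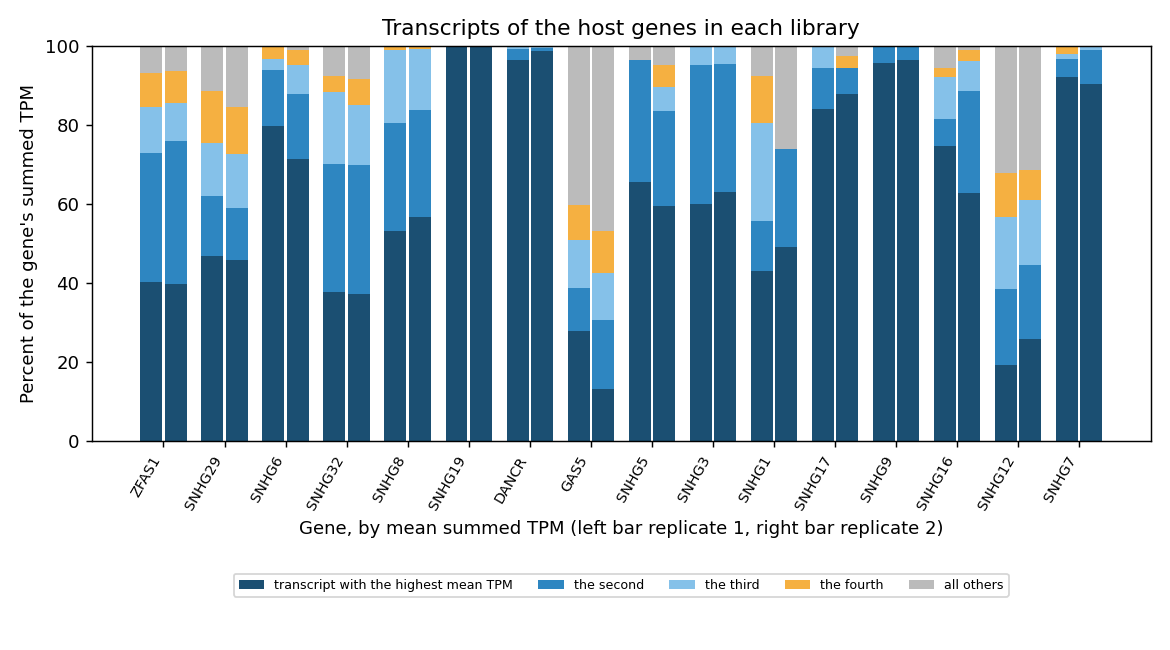
Percent of each gene's summed TPM held by its transcripts, ranked by mean TPM, in the 16 hosts with at least 10 TPM in both libraries, with the left bar for replicate 1 and the right bar for replicate 2. DANCR, SNHG9, SNHG7 and SNHG19 are filled by 1 transcript, while the leading transcript of GAS5 has 27.7% and 13.2%.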

How the data were processed

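RNA from 2 libraries of DDX53-transduced TCam-2 cells was measured by the authors. The submitters' processing notes name Trim Galore 0.6.10, STAR 2.7.11a, Salmon 1.10.2, DESeq2 and GRCh38, with no role given. The authors deposited TPM per transcript. The second deposited table is named as CPM, but its signal sums to other totals and steps by whole reads: 100% of values above 0 were whole multiples of the value of 1 read (tolerance 0.001 reads), so whole reads were recovered. The counter and annotation release are not given in the sources used here.

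CPM was taken over all reads in genes. Transcripts were matched without version to GENCODE release 29 (201667 of 251955, 94.8% of TPM in each library). The libraries were compared with edgeR 4.0.16 (binomTest, TMM, filterByExpr) over the whole table, with DESeq2 1.42.0 size factors as an alternative, after tests on simulated data. Members, lists and tests were chosen with earlier results of these data known. Described singly were hosts with a mean of at least 10 CPM or 10 TPM in both libraries, with called hosts, hosts over 4-fold below the prediction and hosts without reads. Of each comparison list, the 3 highest and the called genes (at most 5, by smallest adjusted p) were named, except 1 that is not reported here.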

Additional observations from a re-analysis of the deposited data

How the results depend on the processing

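No paired analysis was possible because there is only 1 group of libraries, and leaving out a replicate leaves 1 library and no comparison between libraries. The hosts' share of reads, 0.136%, was 0.160% as a share of TPM in matched transcripts and 0.138% without genes encoded in mitochondrial DNA, the latter by construction of a smaller total. For each library alone it ranged from 0.135% to 0.136%. The top transcript differed in 2 of 15 hosts at a minimum of 10 TPM, in 5 of 24 at 1 TPM and in 1 of 7 at 50 TPM, where fewer genes enter by construction. Over all genes it differed in 6.91% at 10 TPM, 11.7% at 1 TPM and 4.39% at 50 TPM. The retained-intron share was 6.11% in total but 1.56% as a median over hosts with at least 10 TPM, with 10 of the 16 hosts above 0 in a library. The others have no transcript of that type among those described, so they enter the median at 0 by annotation. Of the snoRNA-protein particle genes, 5 were called with total reads as library size, against 3, and the cause was not tested. The count of 25 detected hosts became 19 at 5 CPM, 28 at 0.1 CPM and 25 by a summed TPM of at least 1. These last 25 were not all the same hosts, since SNHG21 entered and SNHG31 fell out. The share of all genes was not counted at these alternatives. The same 4 hosts were called with DESeq2 size factors, total reads or no filter on low counts, with SNHG9's adjusted p between 0.022 and 0.038 (edgeR exact binomial test). The hosts' median log2 difference lay between 0.019 and 0.086 over its alternatives. Of the protein-coding snoRNA hosts, 52 of 232 were called, 55 with total reads as library size and 49 of 256 with no filter on low counts. Of all genes tested, 13.1% were called in the main setting, 13.0% with total reads and 6.47% with no filter. With no filter 31 of the 32 hosts were tested, so the 4 calls stand beside that lower share. The alternatives for the comparison lists and for transcript starts (5 of 16 hosts with the motif anywhere in the first 10 bases) were chosen after seeing the data. Under that looser rule the motif was found in 10.9% of all 7432 genes and 15.7% of 159 protein-coding snoRNA hosts. Depth limits hosts under 1 CPM, and the depth behind transcript shares is unknown.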
